A study of Mus musculus with 30 samples.

Results

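The 10 genes described here are H2-K1, H2-D1, B2m, Tap1, Tap2, Tapbp, Psmb8, Psmb9, Nlrc5 and Cd74, named members of the MHC class I antigen presentation pathway together with the class II invariant chain. They were taken by symbol from the 21820 protein-coding symbols of the RNA-seq tables, and all 10 were present. No measured value entered the rule, but the members were chosen with earlier results of these data known. Their levels were followed in brain endothelial cells (ECs) sorted directly from the mouse brain, in the other cells of the same brains, and in brain ECs grown in culture with or without stabilized beta-catenin.

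MHC class I molecules carry peptides made inside the cell to its surface, where CD8+ T cells read them. Peptides are cut by the proteasome, pumped into the endoplasmic reticulum by the TAP transporter and loaded onto a heavy chain paired with beta-2 microglobulin, and interferons raise nearly every step through STAT and IRF factors and the coactivator NLRC5. ECs of the brain are known for constitutive class I expression, whereas class II molecules, whose peptide groove is guarded by CD74 during assembly, belong mainly to professional antigen-presenting cells such as microglia, macrophages, dendritic cells and B cells.

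All mice were adult males. GFP-positive ECs and GFP-negative non-endothelial cells were sorted from the brain of Tie2-GFP mice, in which the Tie2 promoter drives GFP (by the account of the study, cerebrum and cerebellum data combined), with 2 RNA-seq libraries each, sequenced single-end for 75 cycles after amplification of the cDNA. WT cultures (6 libraries) and stabilized cultures (4 libraries) were brain ECs purified with puromycin, to which the P-glycoprotein of brain ECs gives resistance, and grown for 8 days. WT replicates 1 and 2 came from C57BL/6J mice and were isolated with papain (method A), and WT replicates 3 to 6 came from Ctnnb1flex3/+;Tie2-GFP mice and were isolated with a Dounce grinder followed by collagenase and dispase (method B). The sources disagree on WT replicates 5 and 6, which a legend in the study would place with method A, and the assignment here is that of its methods and of the strain labels. Stabilized cultures came from Ctnnb1flex3/+;Pdgfb-CreER;Tie2-GFP mice, replicates 1 and 2 by method A and 3 and 4 by method B, and carried beta-catenin that lacks exon 3 in cells where the Pdgfb promoter had driven Cre. The mice of both culture groups had received 4-hydroxytamoxifen as pups, so WT cultures share the drug but not the recombined allele. Each experiment pooled the brains of several mice, and its 2 replicates were wells, so p-values measure in part the spread between wells. Within method A the stabilized and WT cultures differed in strain background as well as in the allele, and these cannot be told apart. WT replicates 3 and 4 were sequenced for 150 cycles and the other cultures for 36, all paired-end.

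Library totals ran from 24284843 to 94686456 estimated counts, so counting error was small for all members except Nlrc5, Psmb9 and Cd74. Sorted and cultured cells also differed in library preparation, and the mitochondrial share of counts was 10.6% to 24.2% in the 4 sorted libraries and 0.667% to 2.58% in the 10 cultures. The summed level of 7 endothelial markers was 2799 to 2848 TPM (transcripts scaled to a fixed sum per library, allowing for their length) in sorted ECs, 1653 to 4127 in WT cultures, 1832 to 5487 in stabilized cultures and 8.05 to 16.6 in GFP-negative cells, with none at 0. Single endothelial markers moved in both directions, which the sum does not show. By the calls defined below, 3 of 7 were lower and 1 higher in WT cultures against sorted ECs, as in stabilized cultures. Over all genes, 10.2% were called lower and 13.5% higher in WT cultures, and 11.0% and 15.1% in stabilized cultures. Because these are bulk samples, fewer cells of a type and less RNA per cell cannot be told apart.

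Of the members, 7 lie on chromosome 17, and on GRCm38 they span the gene-dense MHC region (H2-K1 at chr17:33996017-34000347 on the minus strand, Tapbp at chr17:33915899-33929292, Psmb9 at chr17:34181987-34187764 on the minus strand, Tap1 at chr17:34187553-34197225, Psmb8 at chr17:34197721-34201454, Tap2 at chr17:34203527-34216321 and H2-D1 at chr17:35262730-35267499). B2m lies at chr2:122147686-122153083 and Nlrc5 at chr8:94434356-94527272.

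The RefSeq promoter table of GRCm38.p6 held 7 of the 10 members. The 4 promoters below, from 250 bases before to 50 bases after the start, 5′ to 3′ on the strand of the gene, are shown because they belong to the 2 heavy chains, their shared light chain and the member that rose in culture, and because each held the summit of an accessible region in every chromatin library. H2-K1 is read from chr17:34000298-34000597 (minus strand), H2-D1 from chr17:35262844-35263143, B2m from chr2:122147437-122147736 and Tap1 from chr17:34187306-34187605. Capitals mark matches on either strand to an interferon response element (ISRE, TTTCNNTTTC, or the shorter TTTCNNTTC), an interferon-gamma activated site (GAS, TTCNNNGAA), an NF-kappaB site, a CCAAT box and an X2-type element (TGACG).
H2-K1: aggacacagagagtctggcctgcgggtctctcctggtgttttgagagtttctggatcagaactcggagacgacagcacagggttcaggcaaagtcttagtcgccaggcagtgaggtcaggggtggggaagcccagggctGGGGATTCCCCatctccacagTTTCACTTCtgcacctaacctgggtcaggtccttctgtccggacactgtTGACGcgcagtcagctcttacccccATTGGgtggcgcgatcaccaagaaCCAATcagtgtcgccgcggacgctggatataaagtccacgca
H2-D1: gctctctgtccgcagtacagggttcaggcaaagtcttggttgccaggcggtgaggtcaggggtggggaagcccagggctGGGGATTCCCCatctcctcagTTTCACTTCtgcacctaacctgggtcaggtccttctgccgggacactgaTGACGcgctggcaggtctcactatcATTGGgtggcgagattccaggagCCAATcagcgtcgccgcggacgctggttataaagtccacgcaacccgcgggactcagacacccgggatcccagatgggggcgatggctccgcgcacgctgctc
B2m: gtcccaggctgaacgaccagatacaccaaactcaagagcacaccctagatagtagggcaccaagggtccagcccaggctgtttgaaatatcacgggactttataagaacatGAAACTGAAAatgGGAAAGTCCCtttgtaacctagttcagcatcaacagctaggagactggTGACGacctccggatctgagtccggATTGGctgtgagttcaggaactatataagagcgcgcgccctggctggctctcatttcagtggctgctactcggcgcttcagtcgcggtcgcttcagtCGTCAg
Tap1: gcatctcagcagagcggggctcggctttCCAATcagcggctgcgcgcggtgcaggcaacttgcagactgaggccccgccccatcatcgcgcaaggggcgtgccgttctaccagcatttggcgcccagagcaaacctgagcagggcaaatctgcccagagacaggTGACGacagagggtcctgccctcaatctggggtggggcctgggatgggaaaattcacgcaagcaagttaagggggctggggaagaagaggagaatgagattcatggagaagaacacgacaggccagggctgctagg

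The H2-K1 and H2-D1 promoters each held an NF-kappaB match, a short ISRE match, a TGACG element and 2 CCAAT boxes, in that order along the strand. Counted from the annotated start, the NF-kappaB match began at -110 in H2-K1 and at -170 in H2-D1, so the 2 windows are offset. Their alignment took 361 positions for windows of 300 bases, gaps included, and 220 of these (60.9%) were identical. Because gaps count as differences, this share understates the likeness of the stretches that face each other. B2m held the longer ISRE at -138 and an NF-kappaB match at -125, and Tap1 held a CCAAT box and a TGACG element but no ISRE, GAS or NF-kappaB match in this window. Among 27025 promoters of the same length, 3.49% held the longer ISRE, 7.56% the shorter one, 8.47% a GAS, 4.35% an NF-kappaB match, 37.9% a CCAAT box and 21% a TGACG element. A match of letters is a description of the window and not a binding site.

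The first comparison asked which members were higher in the sorted EC fraction and which in the other cells of the brain. H2-K1, H2-D1, B2m, Tapbp and Psmb8 were higher in GFP-positive ECs than in GFP-negative cells, and Cd74 was lower. Of 10 members tested, 5 were called higher against a background of 8.30% of 15102 genes, and 1 was called lower against 7.56%. A call here required an adjusted p under 0.05 in edgeR's quasi-likelihood test, more than a 2-fold difference and at least 5 TPM in every library of the higher group. The EC fraction also held markers of other cells. In it, 5 pericyte markers summed to 248 to 358 TPM, against 239 to 473 TPM in GFP-negative cells, and 5 erythrocyte markers to 5448 to 41100 TPM against 1368 to 15190 TPM. Neuron markers were far lower in it, at 3.18 to 5.76 TPM against 198 to 237 TPM. The part of such cells in the member levels was not tested.

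H2-K1, a classical heavy chain, was at 15.7 and 65.3 TPM in GFP-negative cells and at 171 and 185 TPM in sorted ECs. H2-D1, the other classical heavy chain of C57BL/6J mice, was at 123 and 173 TPM in GFP-negative cells and at 301 and 648 TPM in ECs. B2m, the light chain that both need, was at 70.5 and 164 TPM against 415 and 757 TPM. For each of these 3 genes both EC libraries lay above both GFP-negative libraries, as they did for 25.1% of 10024 genes that reached 5 TPM in any of the 4 libraries. The log2 differences were 2.36 for H2-K1 (SE 0.388, adjusted p = 0.00853), 2.16 for H2-D1 (SE 0.329, adjusted p = 0.00659) and 2.37 for B2m (SE 0.349, adjusted p = 0.00603) by edgeR.

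Tapbp encodes tapasin, which bridges the heavy chain to the TAP transporter, and Psmb8 encodes an interferon-inducible catalytic subunit of the immunoproteasome. Tapbp was at 28.5 and 15.6 TPM in GFP-negative cells and at 113 and 80.5 TPM in ECs, a log2 difference of 2.37 (SE 0.373, adjusted p = 0.00735, edgeR). Psmb8 was at 7.61 and 8.53 TPM against 15.0 and 29.7 TPM, a log2 difference of 2.35 (SE 0.596, adjusted p = 0.0306, edgeR). Neither gene overlapped between the groups. The fit allows for library composition but not for which transcripts of a gene were read, and with an offset for transcript length the adjusted p became 0.0516 for H2-K1, 0.0680 for Tapbp and 0.154 for Psmb8, while H2-D1, B2m and Cd74 stayed called. Psmb8 also lost its call without GFP-negative replicate 1 (adjusted p = 0.130), GFP-negative replicate 2 (0.146) or acute EC replicate 2 (0.0698).

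The remaining steps of the pathway did not separate ECs in the same way. The 2 subunits of the peptide transporter are Tap1, found at 6.60 and 3.90 TPM in GFP-negative cells and 4.42 and 3.44 TPM in ECs, and Tap2, found at 4.09 and 29.1 TPM against 26.3 and 17.1 TPM. Both overlapped between groups, with log2 differences of -0.38 (95% interval -1.92 to 1.16, adjusted p = 0.694) and 1.57 (adjusted p = 0.0550), and Tap2 was called higher without acute EC replicate 2 (2.03, adjusted p = 0.0179). Psmb9, a second immunoproteasome subunit, was at 0.577 and 0.714 TPM against 2.34 and 7.01 TPM. Its log2 difference of 3.62 passed the test (adjusted p = 0.0269, edgeR) but 1 EC library lay under the 5 TPM minimum, and it was called without that library (3.96). Nlrc5, the coactivator of class I genes, did not exceed 1.69 TPM in any sorted library.

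Cd74, which lies at chr18:60803848-60812652, was at 90.6 and 204 TPM in GFP-negative cells, from 8854 and 11522 counts, and at 0.803 and 2.76 TPM in sorted ECs, from 156 and 206 counts. In GFP-negative cells its median stood beside that of H2-D1 at the top of the 10 members, and the log2 difference was -5.70 (95% interval -6.94 to -4.46, adjusted p = 0.00180, edgeR). Other genes of the class II pathway lay on the same side, 4 of 10 tested being called lower in ECs and none higher. H2-Ab1 and H2-Aa, the 2 chains of the class II molecule I-A, differed by -7.75 and -7.26 on the log2 scale, Ctss, the cathepsin that trims the invariant chain, by -5.38 and the lysosomal protease Lgmn by -2.91. H2-Aa stood at 38.5 and 81.6 TPM in GFP-negative cells and at most at 0.97 TPM in any other library. Markers of microglia and perivascular macrophages, which can express class II genes, moved with it: 7 microglial markers summed to 118 to 140 TPM in GFP-negative cells and 7.99 to 18.9 TPM in sorted ECs, and 6 perivascular macrophage markers summed to 22.4 to 32.8 TPM against 0.667 to 7.67 TPM. The 7 markers of dendritic and B cells did not, at 4.83 to 13.3 TPM in GFP-negative cells and 11.6 to 21.3 TPM in sorted ECs. Their part in the Cd74 level was not tested.

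**Figure D1:**
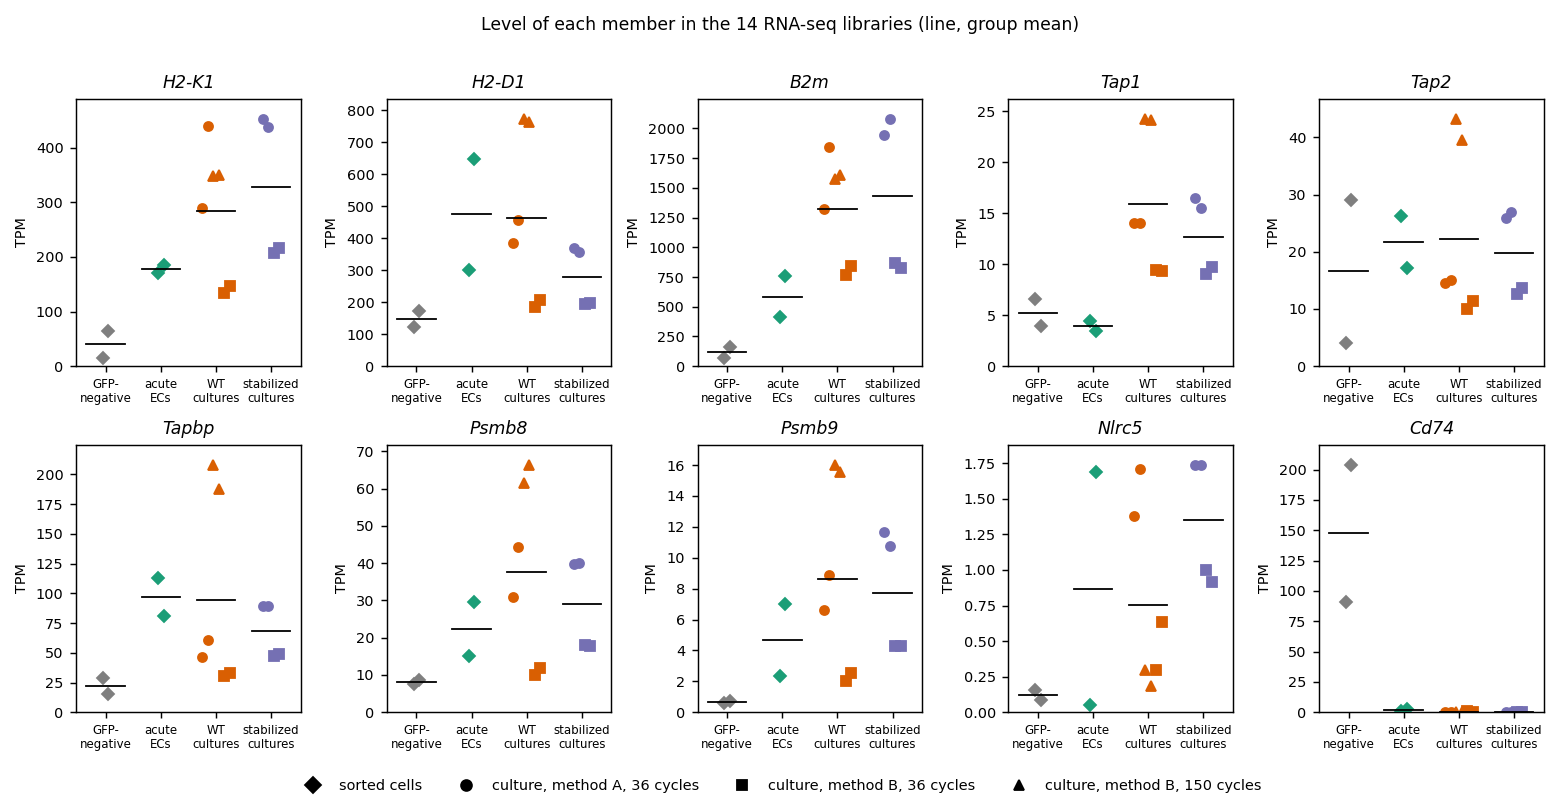
Level of each of the 10 members (TPM, linear axes from 0, a separate scale for each gene) in the 14 RNA-seq libraries, with 1 point per library, shapes for the kind of library and a line at each group mean. H2-K1, H2-D1 and B2m stand above 100 TPM in every EC and culture library, while Cd74 is at 90.6 and 204 TPM in the 2 GFP-negative libraries and at or under 2.76 TPM in all others.

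Genes around the pathway were compared in fixed lists, and in this contrast those that answer to interferon were higher in ECs. Of 14 interferon-stimulated genes tested, 9 were called higher and none lower, with a median log2 difference of 4.25 against -0.06 over all genes. Ifit1, a sensor of foreign RNA, differed by 6.14, Oasl2 by 5.42, Usp18, which dampens interferon signalling, by 5.37 and the transcription factor Irf7 by 5.28. Of 18 regulators of MHC genes, 6 were called higher and none lower, led by Irf1 at 4.04 and Irf9 at 3.34. Of 7 interferon receptors and kinases, 3 were called higher, among them the type I receptor chains Ifnar1 at 3.21 and Ifnar2 at 2.81. Of 14 other heavy chains and class I-like genes, 4 were called higher and none lower: H2-T24 at 5.63, H2-T23 (which encodes Qa-1) at 3.63, H2-Q4 at 3.01 and Fcgrt, the neonatal Fc receptor, at 2.58. Of 12 genes of peptide supply and loading, the third immunoproteasome subunit Psmb10 (2.71) and the trimming peptidase Erap1 (2.66) were called higher and none lower. None of the 3 standard catalytic subunits was called.

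The second comparison asked what 8 days of culture did to the pathway. Tap1 rose, and no other member was called: 1 of 10 was higher against a background of 13.5% of 13784 genes, and 0 of 10 were lower against 10.2%. The median log2 difference was 0.35 over the members and 0.10 over all genes. Tap1 and Tap2 were the only members with an unadjusted p under 0.05 by edgeR, and DESeq2 called the same 2, with Tap2 lower. A share of 1 in 10 is no more than the background, so the count does not set the members apart from other genes.

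Tap1 was at 4.42 and 3.44 TPM in sorted ECs and at 9.37, 14.1 and 24.3 TPM (lowest, median and highest) in the 6 WT cultures. Every culture lay above both sorted libraries, as for 34.4% of 10183 genes, with a log2 difference of 1.2 (SE 0.340, 95% interval 0.43 to 1.97, adjusted p = 0.0191, edgeR). Its partner Tap2 was at 26.3 and 17.1 TPM in sorted ECs and at 9.94, 14.8 and 43.3 TPM in WT cultures. Tap2 overlapped between the groups on the TPM scale, and on the fitted scale it was lower by less than 2-fold (-0.99, SE 0.319, adjusted p = 0.0315), passing 2-fold without acute EC replicate 2 (-1.47), WT replicate 3 (-1.05) or WT replicate 4 (-1.03). The Tap1 call was lost without acute EC replicate 1 (adjusted p = 0.115) and when the wells of an experiment were summed (1.27, adjusted p = 0.0887).

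In most WT cultures B2m and H2-K1 were at least as abundant as in sorted ECs, but the cultures spread widely. The WT median of H2-D1 lay between the 2 sorted libraries. H2-K1 was at 171 and 185 TPM in sorted ECs and at 134, 319 and 440.4 TPM (lowest, median and highest) in WT cultures. B2m was at 415 and 757 TPM against 764, 1449 and 1841 TPM. H2-D1 was at 301 and 648 TPM against 185, 420.0 and 775 TPM. B2m did not overlap between the groups, the lowest culture standing just above the higher sorted library, and the other 2 overlapped. Log2 differences were 1.03 for H2-K1 (95% interval -0.28 to 2.33, adjusted p = 0.174), 0.81 for B2m (-0.06 to 1.68, adjusted p = 0.115) and 0.36 for H2-D1 (-0.52 to 1.24, adjusted p = 0.475). Each interval reaches from below 0 to beyond 1, so neither an increase nor its absence was shown. Short reads of a heavy chain can match other genes: 23.2% of windows of 36 bases in an H2-D1 transcript were also found in transcripts of 542 other genes and 17.9% in an H2-K1 transcript in those of 34, against 6.90% and 1.55% at 75 bases and none in B2m at either length. Summed over 15 heavy chain genes, which removes exchange among those genes only, the log2 difference was 0.30 (adjusted p = 0.605).

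For Tapbp, sorted ECs were at 113 and 80.5 TPM and WT cultures at 30.3, 53.5 and 208 TPM. Psmb8 was at 15.0 and 29.7 TPM against 9.92, 37.7 and 66.5 TPM, and Psmb9 at 2.34 and 7.01 TPM against 2.01, 7.76 and 16 TPM. All 3 overlapped, with log2 differences of 0.27, 0.23 and 0.35 (adjusted p from 0.6 to 0.738). Nlrc5 stayed under 2 TPM in every library of the series, and its log2 difference of 1.74 had an interval of -0.49 to 3.96. Cd74 was at 0 counts in WT replicates 1 and 2, which allows up to 3 counts in each, and at 5 to 80 counts in the other 4 WT cultures. With 156 and 206 counts in sorted ECs, the fitted difference of -2.73 (-5.86 to 0.40, adjusted p = 0.137) rests on few reads. The 7 microglial markers summed to 40.7 to 74.8 TPM in WT cultures against 7.99 to 18.9 TPM in sorted ECs, 1 of them being called higher, while 5 of 7 were under 1 TPM in both groups. All 4 T and NK cell markers were at 0 in WT cultures. The part of other cells in the Cd74 counts of cultures was not tested.

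**Figure D2:**
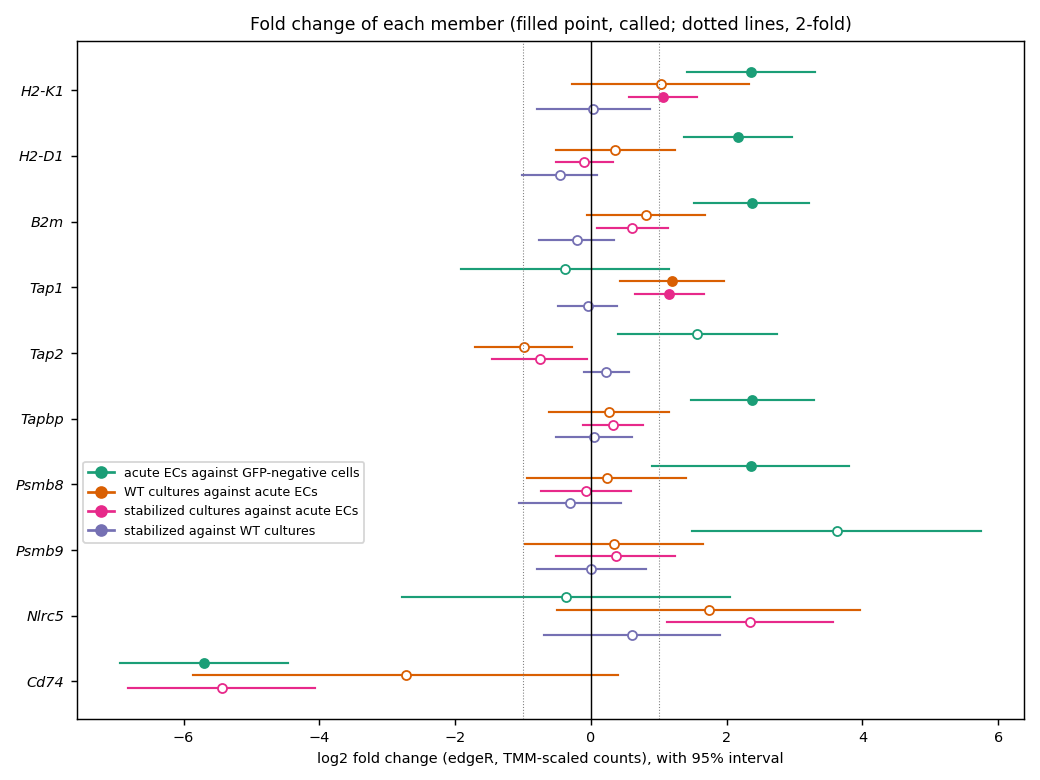
Log2 fold change of each member (points, edgeR on TMM-scaled counts) with its 95% interval (bars) in the 4 comparisons between groups, filled where the member was called. The class I chains and Tapbp sit between 2.16 and 2.37 in acute ECs against GFP-negative cells, Tap1 is called in both comparisons of cultures with acute ECs, and all 9 intervals of stabilized against WT cultures include 0.

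Among the lists around the members, lower calls were most frequent in interferon-stimulated genes and in regulators of MHC genes, beside the 10.2% of all genes called lower, and the other lists held at most 2 calls in each direction. Of 14 interferon-stimulated genes 6 were called lower and none higher, with a median log2 difference of -1.99 against 0.10 over all genes. Oasl2 differed by -5.00, Ifit1 by -3.88, Isg15, a ubiquitin-like modifier, by -3.46, Irf7 by -3.04, Gbp3 by -2.09 and Usp18 by -1.90. Oasl2 was at 77.3 and 61.9 TPM in sorted ECs and between 0.306 and 4.59 TPM in all cultures. Markers of other cell types moved in the same contrast. The 5 pericyte markers summed to 248 to 358 TPM in sorted ECs and 4.09 to 9.88 TPM in WT cultures (4 of 5 called lower). The 5 erythrocyte markers summed to at least 5448 TPM against at most 1.39 TPM. The 3 smooth muscle markers summed to 211 to 231 TPM against 496 to 3025 TPM, but they split, 2 being called higher and 1 lower. The part of these cell types in the interferon-stimulated genes was not tested. Among 17 regulators of MHC genes 5 were called lower and 2 higher. Among the lower were Irf2 (-3.53), Stat2 (-1.99), Creb1 (-1.80) and Irf1 (-1.72), and higher were the NF-kappaB subunit Rela (1.82) and Socs3 (2.15), an inhibitor of cytokine signalling. Of 7 interferon receptors and kinases, only Ifngr2, a chain of the interferon-gamma receptor, was called, at 2.85.

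Other class I genes went in both directions. Of 14 tested, 1 was called higher and 2 lower, with a median of -0.53. H2-T22 rose by 4.03 on the log2 scale (adjusted p = 0.000292, edgeR), from 0.738 and 2.44 TPM to between 15.7 and 35.5 TPM in the cultures of both kinds. H2-T24 fell by 8.08 (adjusted p = 0.000115), from 20.7 and 37.4 TPM to at most 0.476 TPM, and Fcgrt fell by 2.08. H2-T22 and H2-T24 belong to a family of close copies, so part of their counts may have been split between genes. Of 12 genes of peptide supply and loading, Psme2 (1.58), a subunit of the proteasome activator PA28, was called higher, while its partner Psme1 (-1.18) and Erap1 (-1.44) were called lower. Of 7 genes tested in the class II pathway, only Lgmn (2.17) was called.

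**Figure D3:**
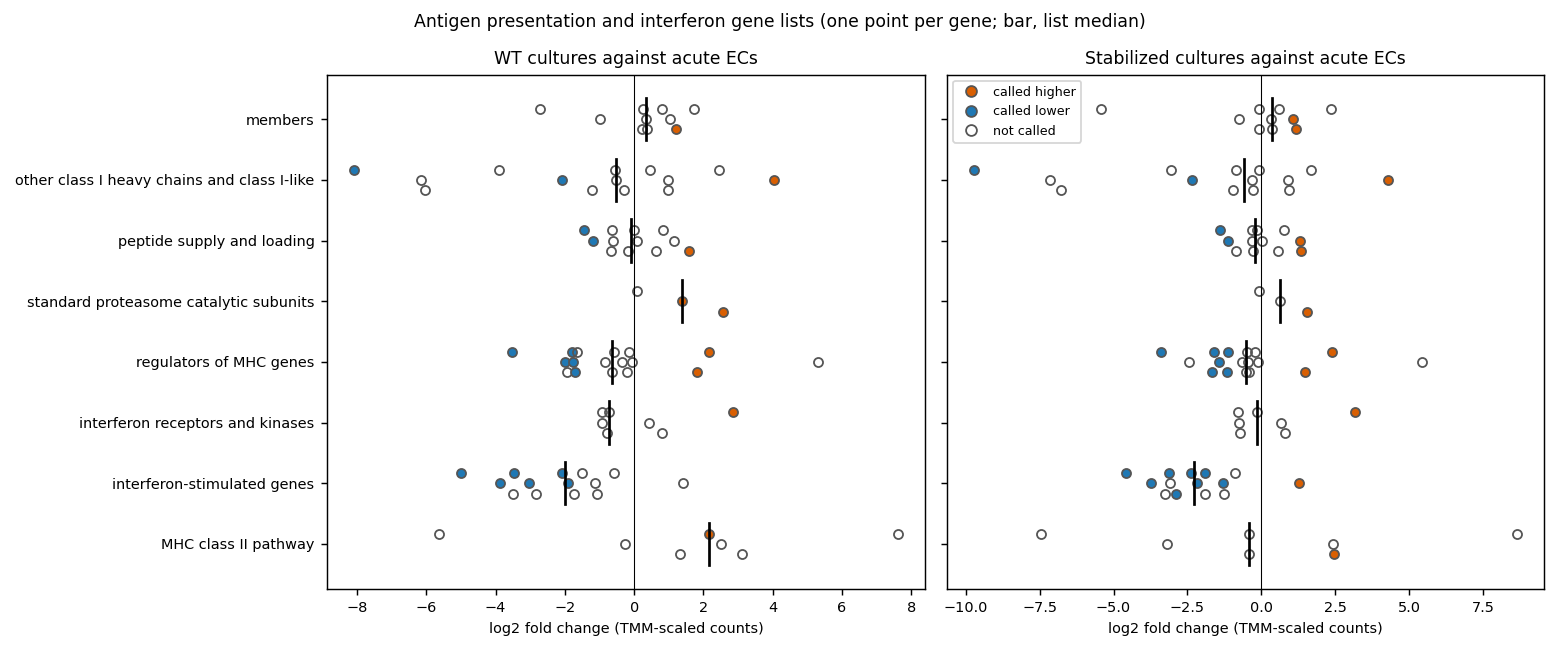
Log2 fold change of each tested gene of the members and of 7 surrounding lists in WT cultures (left) and stabilized cultures (right) against the same 2 acute EC libraries, with 1 point per gene, filled where called, and a bar at the median of each list. Interferon-stimulated genes have medians of -1.99 and -2.28, and the members 0.35 and 0.34.

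The proteasome was then read as pairs, because each immunoproteasome subunit replaces one standard subunit. Psmb5 and Psmb6, which Psmb8 and Psmb9 replace, both rose in culture, by 2.58 (adjusted p = 0.0148, edgeR) and 1.39 (adjusted p = 0.0222) on the log2 scale, whereas Psmb7 did not pass (0.08). The ratio of Psmb8 to Psmb5 TPM was 1.14 and 0.859 in sorted ECs and 0.0929, 0.114 and 0.405 (lowest, median and highest) in WT cultures. All 6 cultures lay below both sorted libraries, a log2 difference of -2.61 with an exact two-sided permutation p of 0.0714, the smallest that 6 against 2 libraries allow, and 0.400 after adjustment over 12 such comparisons. The ratio of Psmb9 to Psmb6 was 0.0463 and 0.101 in sorted ECs and 0.0118 to 0.0433 in WT cultures, but its order depends on which transcripts are counted: over protein-coding transcripts alone it was 0.00142 to 0.00151 in sorted ECs and 0.0150 to 0.0596 in WT cultures. For Psmb10 over Psmb7 the log2 difference was 0.12 (exact p = 1). In stabilized cultures Psmb8 over Psmb5 was 0.434, 0.434, 0.180 and 0.179 in replicates 1 to 4. These values overlapped the WT cultures as a whole, but within method A both lay above the 2 WT wells (0.373 and 0.405), and within method B both lay above the 2 WT wells of 36 cycles (0.0929 and 0.101), differences that were not tested.

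The transcripts assigned to a gene differed between sorted and cultured cells for several members. In sorted ECs, protein-coding transcripts made up 3.86% and 7.51% of Tap2 TPM, and 1 transcript with a retained intron made up 94.7% of the group. In the cultures of 36 cycles the coding share was 31.0% to 51.3%, and in WT replicates 3 and 4, with the longest reads, it was 100%. Psmb9 was coding for 2.78% and 1.23% of its TPM in sorted ECs, where 1 transcript annotated for nonsense-mediated decay made up 95.2%, and for 71.3% to 99.2% in cultures. Psmb8 was coding for 58.3% and 50.9% in sorted ECs and for 57.8% to 99.7% in cultures, and H2-K1 for as little as 45.1% in WT replicate 5. Counting coding transcripts alone, Tap1 stayed higher in culture (1.12, adjusted p = 0.0289, edgeR), Tap2 turned to 1.29 (adjusted p = 0.163) and Psmb9 reached 5.17 (adjusted p = 0.00120). Read length, library preparation and culture changed together here and cannot be told apart. In sorted ECs the gene-level values of Tap2 and Psmb9 thus count mostly transcripts that are not annotated as coding.

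**Figure D4:**
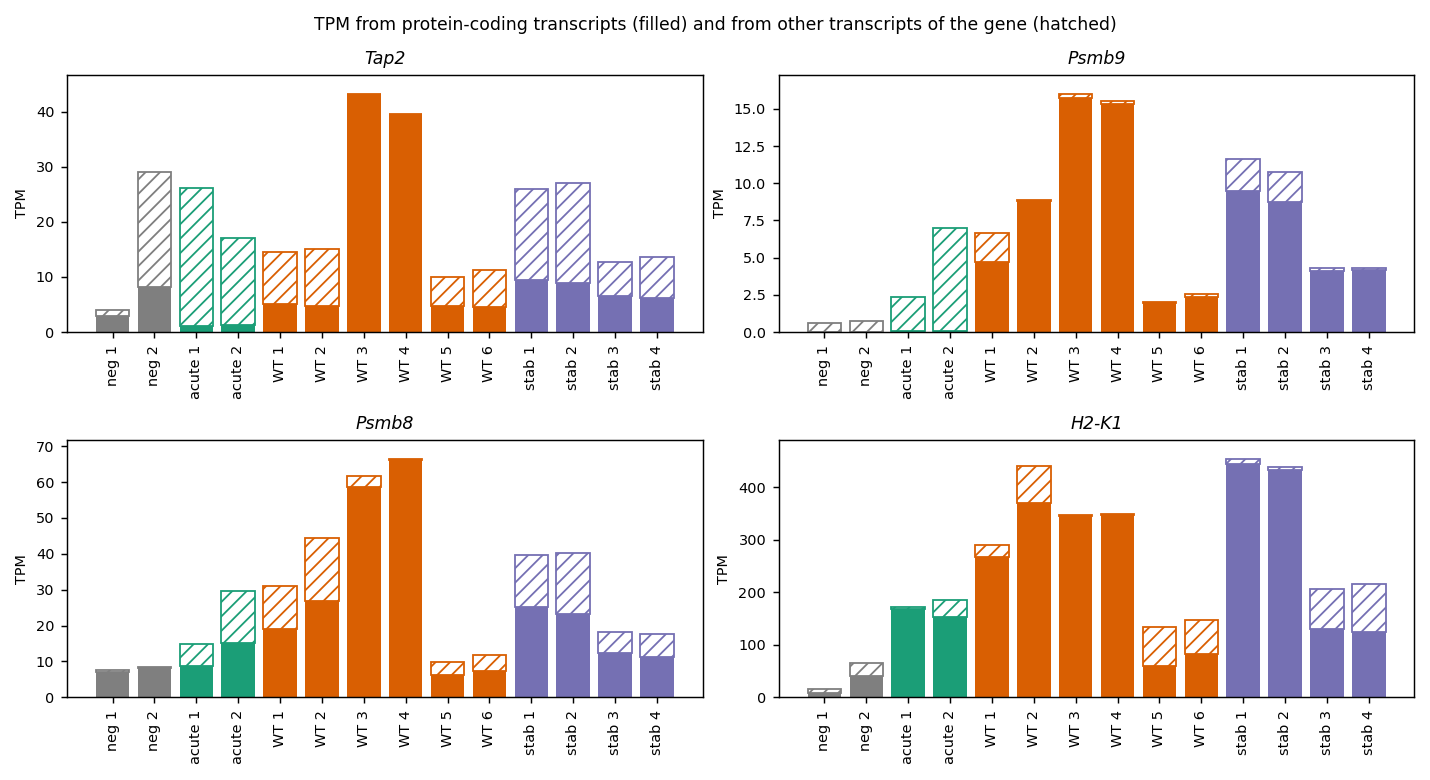
TPM of Tap2, Psmb9, Psmb8 and H2-K1 in each RNA-seq library (bars from 0), with the filled part from protein-coding transcripts and the hatched part from other transcripts of the gene. Nearly all Tap2 and Psmb9 TPM of the 2 acute EC libraries is hatched, whereas in WT replicates 3 and 4 the Tap2 bars are wholly filled.

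Stabilized beta-catenin was examined next. No member was called in stabilized against WT cultures, 0 of 9 tested, against a background of 0.00% in both directions over 12958 genes (Cd74 had too few counts to be tested). By edgeR 1344 genes had an unadjusted p under 0.05, none of them called after adjustment, and DESeq2 called 15 genes higher and 3 lower, with no member among them. H2-K1 was at 454, 439, 207 and 216 TPM in stabilized replicates 1 to 4, B2m at 1948, 2083, 865 and 825 TPM, and Tap1 at 16.5, 15.5, 9.08 and 9.75 TPM. In each of these genes the wells of method A were higher than the wells of method B on the TPM scale, and the range overlapped that of WT cultures. Log2 differences were 0.03 for H2-K1 (95% interval -0.80 to 0.86), -0.46 for H2-D1 (-1.01 to 0.09), -0.21 for B2m (-0.76 to 0.34), -0.05 for Tap1 (-0.48 to 0.39), 0.23 for Tap2 (-0.10 to 0.56) and 0.05 for Tapbp (-0.52 to 0.61). For Psmb8 the difference was -0.31 (-1.06 to 0.44), for Psmb9 0.01 (-0.80 to 0.81) and for Nlrc5 0.60 (-0.69 to 1.89). The intervals of H2-D1, Psmb8 and Nlrc5 reach past a 2-fold change and the other 6 do not.

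Stabilized cultures against the same 2 sorted EC libraries gave 2 of 10 members called higher, against a background of 15.1% of 13888 genes, and 0 lower against 11.0%. Tap1 was higher by 1.16 (SE 0.216, adjusted p = 0.00443, edgeR) and H2-K1 by 1.06 (SE 0.211, adjusted p = 0.00561), both with all 4 cultures above both sorted libraries, as for 40.5% of 9784 genes. Tap1 fell to 0.98, under 2-fold, without acute EC replicate 1, and H2-K1 to 0.88 without acute EC replicate 2 and to 0.99 without stabilized replicate 1, while Tap2 was called lower without acute EC replicate 2 (-1.19). The H2-K1 call did not hold with an offset for transcript length (0.21, adjusted p = 0.443) or over coding transcripts alone (0.89, adjusted p = 0.0317, under 2-fold). With that offset H2-D1 (-1.31, adjusted p = 0.00270) and Tapbp (-1.20, adjusted p = 0.0143) were called lower, so for these 3 genes the answer depends on the scale. B2m was higher by less than 2-fold (0.61, adjusted p = 0.0486). Of 14 interferon-stimulated genes, 8 were called lower and 1 higher, Oasl2 again differing most (-4.57), and among other class I genes H2-T22 was higher (4.28) and H2-T24 (-9.72) and Fcgrt (-2.33) lower. Since WT and stabilized cultures were set against the same sorted libraries, the 2 comparisons are not independent.

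In the wells sampled, the difference between stabilized and WT cultures was not the same in the 2 isolation methods. Each genotype had 2 wells in each method, so p-values measured the spread between wells. Method and experiment therefore cannot be told apart. Among the 8 cultures of 36 cycles, the interaction of genotype with method passed the test for 9 of 10 members, against a background of 49.6% of 13356 genes. The effect was higher in method B for 8 members, against 25.1% of all genes, and lower for Cd74 alone, against 24.5%. Among the members that were higher, H2-K1 had the largest difference, 1.57 (SE 0.131, adjusted p = 9.7e-05, edgeR), followed by Psmb8 at 1.44 (SE 0.118, adjusted p = 9.6e-05), Psmb9 at 1.32 (SE 0.19) and H2-D1 at 1.06 (SE 0.123). Tap1 differed by 0.75, Nlrc5 by 0.73, Tapbp by 0.60 and B2m by 0.59. Tap2 was the exception at 0.13 (adjusted p = 0.369). The Nlrc5 and Cd74 values rest on few counts and did not pass without WT replicate 1 (adjusted p = 0.0554 and 0.0750), nor, for Nlrc5, without WT replicate 5 or stabilized replicate 4 or, for Cd74, without WT replicate 2 or any 1 stabilized replicate.

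The levels behind this difference were read in CPM (counts scaled to a common library size by the TMM method over these 8 libraries, with no allowance for length). In method A, H2-K1 was at 604 and 589 CPM in WT and at 409 and 355 CPM in stabilized cultures, and in method B at 159 and 184 CPM in WT and at 322 and 328 CPM in stabilized cultures. Stabilized wells thus lay below WT wells in method A and above them in method B, and in both methods they lay between the WT wells of method B and the WT wells of method A. Psmb8 had the same order, at 43.9 and 46.2 CPM in WT and 29.7 and 26.5 CPM in stabilized cultures of method A, and at 14.7 and 15.6 CPM against 25.0 and 26.3 CPM in method B. B2m was at 1054 and 1067 CPM against 791 and 776 CPM in method A, and at 514 and 533 CPM against 577 and 590.4 CPM in method B. Within method A the log2 difference was -0.64 for H2-K1 (adjusted p = 0.00173, edgeR), -0.88 for H2-D1 (adjusted p = 0.000874), -0.67 for Psmb8 (adjusted p = 0.00155), -0.55 for Tap1 (adjusted p = 0.0129) and -0.43 for B2m (adjusted p = 0.00368). Within method B it was 0.91 for H2-K1 (adjusted p = 0.00102), 0.75 for Psmb8 (adjusted p = 0.00147), 0.69 for Tapbp (adjusted p = 0.000938) and 0.42 for Tap2 (adjusted p = 0.00738), while H2-D1, B2m and Tap1 did not pass. All of these were under 2-fold. On the TPM scale, among the genes named for method A, only H2-D1 kept the lower stabilized wells (369.8 and 356.4 against 384.4 and 455.7 TPM). H2-K1 and Psmb8 overlapped between stabilized and WT wells of method A. Both stabilized wells were higher for B2m (1948 and 2083 against 1322 and 1841 TPM) and Tap1 (16.51 and 15.51 against 14.09 and 14.01 TPM). The median gene of the stabilized libraries of method A stood at 169% and 182% of the median library in TPM. That of the WT libraries of method A stood at 86.8% and 117%. The part of this shift in the TPM values of H2-K1, Psmb8, B2m and Tap1 was not tested.

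Of 13 other class I genes 10 had the higher effect in method B and none the lower. The largest were H2-Q10 at 2.68, from 4 to 43 counts, Hfe, a class I-like gene of iron uptake, at 2.23, the lipid-presenting Cd1d1 at 2.03, from 2 to 152 counts, and H2-T23 at 1.99. Of 14 interferon-stimulated genes 12 had the higher effect in method B and none the lower, the largest being Rsad2 at 3.22, Ifit3 at 2.08 and Gbp2, an interferon-induced GTPase, at 1.73. The lists were not alike: among 17 regulators of MHC genes the split was 7 and 7, among 12 genes of peptide supply and loading 7 and 3, and among 7 interferon receptors and kinases 3 and 0 with a median near 0. In method A the WT mice were C57BL/6J and the stabilized mice were not, whereas in method B both carried Ctnnb1flex3 and Tie2-GFP. Method, strain and experiment thus cannot be told apart in the interaction. If WT replicates 5 and 6 had been isolated by method A, the comparison called method B here would also set one method against the other. Class I genes are highly polymorphic between mouse strains and the reads were assigned to C57BL/6J gene models, and the part of strain in these values was not tested.

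The WT cultures alone already differed by experiment. In a test over the 3 WT experiments, 5 of 10 members were called, H2-K1, H2-D1, Tapbp, Psmb8 and Psmb9, against a background of 35.6% of 13050 genes. The gap between the highest and the lowest experiment was 1.78 on the log2 scale for H2-K1 (adjusted p = 1.0e-07, edgeR), 1.62 for Psmb9, 1.55 for Psmb8, 1.17 for Tapbp and 1.05 for H2-D1 (0.96 without WT replicate 1 or 5), and its median over all genes was 1.22. On the TMM scale over all 14 libraries H2-K1 was at 589 and 587 CPM in WT replicates 1 and 2, at 276 and 298 CPM in replicates 3 and 4 and at 166 and 194 CPM in replicates 5 and 6. For H2-K1, wells of one experiment lay close together and the 3 experiments did not overlap. The p-values of this test measure the spread between wells, and 11714 of 13050 genes had an adjusted p under 0.05. All 10 members were among them, so a separation of the experiments was not particular to the members. B2m (1.0), Tap1 (0.71) and Tap2 (0.51) spread by no more than 2-fold, although B2m passed 2-fold without WT replicate 6 (1.01). Of 14 interferon-stimulated genes, 8 were called with a median gap of 2.50, and their summed level ran from 129 to 1191 TPM over the WT cultures. Strain, method and read length changed between experiments, and their parts were not tested.

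Chromatin accessibility at the members was read from ATAC-seq peaks called in each library (2 libraries from sorted ECs, 6 from WT cultures, 2 from stabilized ones). A peak over the start, within 1000 bases on either side and with at least 2-fold enrichment, was present in every library for 9 of 10 members in sorted ECs (54.0% of 21738 genes), for 8 in WT cultures (52.9%) and for 9 in stabilized cultures (61.3%). Cd74 had no promoter peak in any library. Tap2 lacked one in WT replicates 1 and 2, libraries with 50395 and 33122 peaks, and had one in the 2 libraries of sorted ECs, with 37384 and 31779 peaks.

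Fold enrichment at the promoter was 15.9 and 15.2 in sorted ECs and 13.6 to 18.9 in WT cultures for B2m, and 15.0 and 11.7 against 11.8 to 20.7 for H2-K1. H2-D1 was at 14.3 and 13.6 in sorted ECs and at 9.29 to 17.4 in WT cultures. These 3 promoters were thus already open in the brain, and sorted ECs lay within the range of the cultures or close to it. Psmb8 was at 8.45 and 9.10 in sorted ECs, at 7.03 and 5.84 in WT replicates 1 and 2, at 15.5 to 19.5 in WT replicates 3 to 6, and at 12.0 and 13.4 in stabilized cultures. Both stabilized libraries thus lay below the WT libraries of the same isolation method, B. Nlrc5 was at 5.84 and 5.90 in sorted ECs and at 4.91 to 14.7 in WT cultures. Enrichment depends on the background and depth of each library, so it was compared by range and not tested. Psmb9 and Tap1, which start 226 bases apart on opposite strands, lay under a single shared peak with an enrichment of 14.7 and 13.2 in sorted ECs and 8.70 to 18.0 in WT cultures. Summits fell inside the promoters printed above in 10 of 10 libraries, at -85 to 7 from the start in H2-K1, -100 to -53 in H2-D1, -125 to -23 in B2m and -188 to -142 in Tap1. In H2-D1 this range starts at the TGACG element, covers the first CCAAT box and ends at the edge of the other, and in B2m it starts at the NF-kappaB match and covers a TGACG element and the CCAAT box.

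**Figure D5:**
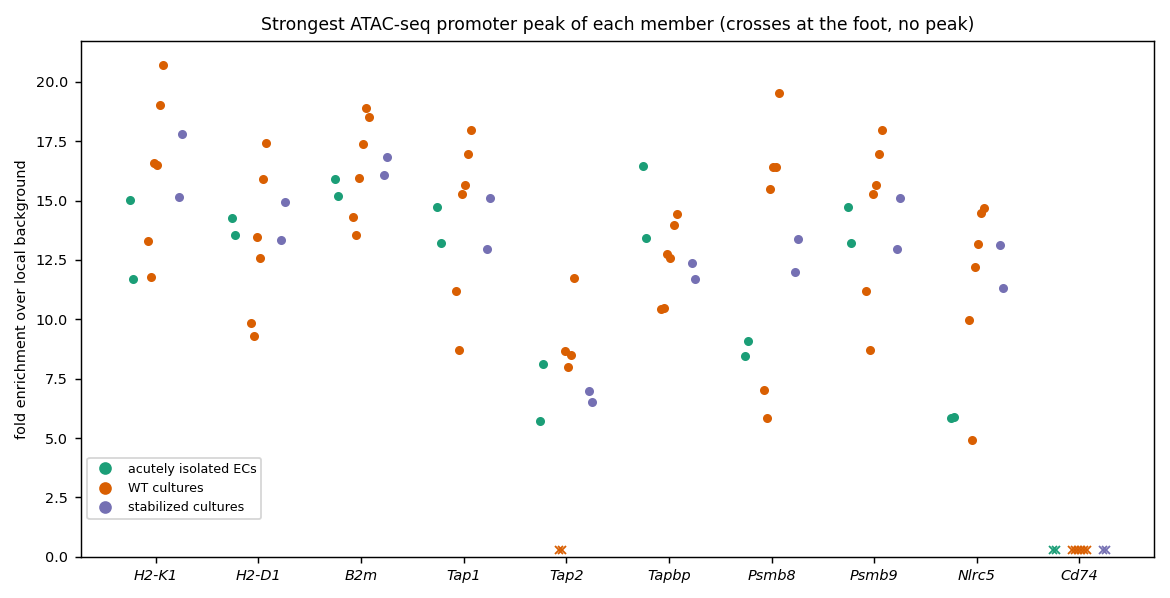
Fold enrichment over local background of the strongest ATAC-seq promoter peak of each member in the 10 chromatin libraries, with 1 point per library colored by group and a cross at the foot where no peak was called. B2m, H2-K1 and H2-D1 are at 9.29 or more in every library, Psmb8 runs from 5.84 to 19.5, and Cd74 has crosses only.

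Lastly, genes with a pattern like that of the members were sought over the 14 RNA-seq libraries. The mean profile of the 10 members, on log2(TPM + 1) centred per gene, was nearest to Zfp207 (root mean square difference 0.196), Rnf130 (0.205), Rab5b (0.212), Alg14 (0.213) and Sumf1 (0.213) among 9053 genes. Among the members themselves H2-D1 was nearest to the mean at 0.381 and Cd74 farthest at 2.75. The measure says nothing of shared function, and the distance of Cd74, the member that was highest in GFP-negative cells, shows that the 10 members did not have a single profile.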

How the data were processed

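RNA-seq tables were used as deposited: per the paper's methods the authors trimmed the reads and ran Salmon (version 0.14.0 per the labels) on GENCODE M21 transcripts with bias correction, and deposited estimated counts and TPM per transcript for each of the 14 libraries. For ATAC-seq the authors aligned with HISAT2 2.1.0 and ran MACS2 2.1.2 library by library (GRCm38), and deposited for each peak a score, a fold enrichment ratio and −log10 p-values and q-values; peaks with a ratio over 2 and −log10 q over 2 were used. The members and lists were chosen with earlier results of these data known.

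Estimated counts were summed per gene over 140198 transcripts, rounded and, for protein-coding genes, tested with edgeR 4.0.16 (R 4.3.3; filterByExpr, TMM scaling, quasi-likelihood test, Benjamini-Hochberg adjustment over all genes tested); each comparison was fitted on its own libraries. Calls required an adjusted p below 0.05, a log2 difference beyond 1 and at least 5 TPM in every library of the higher group (in both wells of the highest WT experiment). For the interaction of genotype with isolation method the adjusted p alone decided. Ratios were tested with exact permutation tests (scipy 1.17.1). TPM were summed per gene without further scaling and compare levels between genes per transcript length. DESeq2 1.42.0, other scalings, filters, transcript-length offsets and left-out libraries were alternatives. The code was tested on simulated counts. Of the surrounding lists, up to 6 called genes per direction and comparison were named, by size of the difference; H2-Ab1, H2-Aa, Ctss and Lgmn follow that rule. Promoter sequences and their starts are from RefSeq (GRCm38.p6). Replicates of cultures are wells; what separates the replicates of sorted cells is not given in the sources used here. Library totals of 24284843 to 94686456 estimated counts set the precision of the counting only. Cerebrum samples were not analysed here. Some genes of the surrounding lists are not reported here.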

Additional observations from a re-analysis of the deposited data

Results flagged for a closer look

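Cd74 in stabilized cultures held 1 value apart from the rest of its group: replicate 1 was at 0.133 TPM, from 7 counts, and the other 3 at 0.0284 to 0.0455 TPM, from 2 to 4 counts. It was the only one among 35 sets of values tested for such a gap, and chance marks about 1 in 20. The sets were member TPM, promoter peak enrichment and proteasome ratios, each within a culture group.

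The effect of stabilized beta-catenin differed between the wells of the isolation methods by the test of the interaction itself, whose p-values measure the spread between wells. The difference (effect in method B minus effect in method A, log2) was 1.57 for H2-K1, 1.06 for H2-D1, 0.59 for B2m, 0.75 for Tap1, 0.60 for Tapbp, 1.44 for Psmb8, 1.32 for Psmb9 and 0.73 for Nlrc5. For Cd74 it was -9.05, a value fitted on 80 and 20 counts in the WT wells of method B, 0 in the WT wells of method A and at most 7 in the stabilized wells, which is no measure of size. Of all genes tested, 49.6% passed the same test. Summed over 15 class I heavy chains the difference was 1.16 (adjusted p = 0.000188, edgeR). Strain and experiment changed with method in the WT cultures, and their parts were not tested.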

How the results depend on the processing

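Of 957 member values under an alternative, 895 kept their side of the threshold, 34 lost the call and 22 gained it. Another 6 turned direction where a value passed the adjusted p threshold. Among the 895, 51 changed sign where neither value passed. Members called in WT cultures against acute ECs (1 as reported) numbered 2 with DESeq2 size factors, 2 with the DESeq2 test, 2 with cultures of 36 cycles only and 0 with wells of an experiment summed, and 0 to 2 with 1 library left out. In acute ECs against GFP-negative cells (6) they numbered 3 with the transcript-length offset and 5 to 7 with 1 library left out. In stabilized cultures against acute ECs (2) they numbered 1 with DESeq2 size factors, 1 with the DESeq2 test, 4 with no TPM minimum, 1 with all 14 libraries in 1 fit and 1 to 2 with 1 library left out; the offset gave 3, of which 2 were lower. Leaving out 1 library gave 4 to 6 for the WT experiments (5), 7 to 9 for the interaction (9) and 0 for stabilized against WT cultures. Values that turned were Tap2 over coding transcripts only (1.29 in WT and 1.05 in stabilized cultures against acute ECs), Tapbp with the offset (-1.20), Psmb8 in stabilized cultures against acute ECs with 1 library left out (from -0.48 to 0.50, the latter without acute EC replicate 2), H2-K1 in method A alone (-0.64) and Psmb8 in method B alone (0.75, stabilized against WT); the cause was not tested.

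Over all genes, calls without the TPM minimum were 3160 higher and 2825 lower in WT cultures against acute ECs (1866 and 1409 as reported) and 3408 and 3209 in stabilized cultures (2091 and 1527). In acute ECs against GFP-negative cells (1254 and 1142) they were 1499 and 2980 without it, and 669 and 895 with the offset. Wells summed gave 1274 and 834 in WT cultures. Stabilized against WT cultures (0) gave 692 and 118 in method A, 138 and 36 in method B and 66 and 10 with method as a term. Scaling by library size moved the median of all genes from 0.10 to 0.30 in WT cultures against acute ECs and from -0.06 to -0.44 against GFP-negative cells.

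With the replicate number as a block, 3 members were called in WT cultures against acute ECs (H2-K1 at 1.82 and B2m at 1.23 besides Tap1), 5 in acute ECs against GFP-negative cells (Psmb8 lost, adjusted p = 0.0522), 0 in stabilized against WT cultures (130 and 34 genes overall) and 1 in stabilized cultures against acute ECs (Tap1 lost, adjusted p = 0.0627). Same-numbered libraries deviated together with correlations of -0.04 to 0.54. These were under 0.1 for all but numbers 1 and 2 of stabilized and WT cultures, which are the wells of method A. For the other libraries the numbers gave no sign of a pairing. In the wells of method A, a pairing by number and the shared method cannot be told apart.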
